A study of Mus musculus with 6 samples.

Results

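Messenger RNA of the 9 genes H2-K1, H2-D1, B2m, Tap1, Tap2, Tapbp, Nlrc5, Erap1 and H2-T23, which encode the parts of the MHC class I presentation pathway, was followed in mouse bone-marrow-derived macrophages (BMDMs) exposed to excess salt. The genes were chosen by symbol. Each of the 9 matched 1 gene, and all 9 were among the 15903 genes tested, so none was lost to the filter on low counts. BMDMs were grown for 7 days from the marrow of Cx3cr1GFP mice, which carry a GFP sequence in the Cx3cr1 locus on a C57BL/6J background, in medium with 10 ng/ml M-CSF, the growth factor that turns marrow cells into macrophages. Adherent cells of 3 mice were left unstimulated (control, n = 3) or were treated with 62 mM additional NaCl for 24 h (NaCl, n = 3), and polyadenylated RNA of each culture was sequenced. The allele, the growth factor and the 2 mM EDTA used to detach the cells were common to both groups. The age of the mice and the number of GFP alleles are not given in the sources used here. The mouse number links 1 control with 1 NaCl library, and since both come from the same animal each gene was also compared within mice. The comparison asks whether a day in high salt changes the transcripts with which macrophages display peptides from inside the cell.

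MHC class I molecules carry short peptides from the cytosol to the cell surface, where CD8 T cells read them. A heavy chain (H2-K1 and H2-D1 encode the classical ones of this strain) pairs with beta-2 microglobulin, the product of B2m. Peptides enter the endoplasmic reticulum through the transporter formed by TAP1 and TAP2, are shortened there by the aminopeptidase ERAP1, and are loaded with the help of tapasin, the product of Tapbp. NLRC5 is the transactivator of class I genes, and interferons raise the expression of the whole pathway in macrophages. H2-T23 encodes Qa-1, a class I molecule of limited variability that presents leader peptides of other class I chains to receptors of NK cells and T cells.

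The 6 libraries held from 4088065 to 20123570 reads counted on genes, and NaCl replicate 3 was the smallest. The lowest count of a member in any library was 141, for Tap2 in NaCl replicate 3. Expression is given as CPM, the count of a gene scaled to the size of its library with edgeR's TMM factors, and as RPKM, the CPM per kilobase of exon, where genes are compared with each other. Fold changes are those of NaCl against control from edgeR's quasi-likelihood test over all genes tested, with p-values adjusted by the Benjamini-Hochberg method. The first fit had no mouse term, as in the study's methods, which however used DESeq2 and not edgeR. Beside it stands a fit in which the mouse enters as a replicate block, whose result is given where it differs. In these bulk samples, fewer cells of a kind and less RNA per cell cannot be told apart.

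In edgeR without the mouse term 0 of the 9 genes reached an adjusted p under 0.05, beside 0.654% of all genes tested (0.478% higher and 0.176% lower). In that fit 2 of the 9, Tapbp and H2-T23, had an unadjusted p under 0.05, as had 2010 of all 15903 genes tested. DESeq2 without the mouse also called 0 of the 9, against 2.52% of all genes (1.54% higher and 0.975% lower). Once the block was added in edgeR, H2-T23 alone of the 9 passed and was higher, a share close to the background of that fit, in which 8.90% of all genes passed (4.60% higher and 4.30% lower). DESeq2 with the block also called 1 of the 9, again H2-T23, against 5.07% of all genes (2.84% higher and 2.23% lower). The log2 fold changes without the mouse term ran from -0.28 for Tap1 to 0.53 for H2-T23, with 6 genes above and 3 below 0. Their median was 0.09, beside -0.01 over all genes tested. The 3 NaCl values lay above the 3 control values in 2 of the 9 genes, H2-T23 and Tapbp, and below them in 0, against 8.92% and 10.1% of all genes, or 19.0% in either direction. Within mice, 4 of the 9 were higher in 3 of 3 mice (H2-D1, Tapbp, Nlrc5 and H2-T23) and 2 were lower in 3 of 3 (B2m and Tap1). These patterns were found in 20.1% and 23.4% of all genes.

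**Figure D1:**
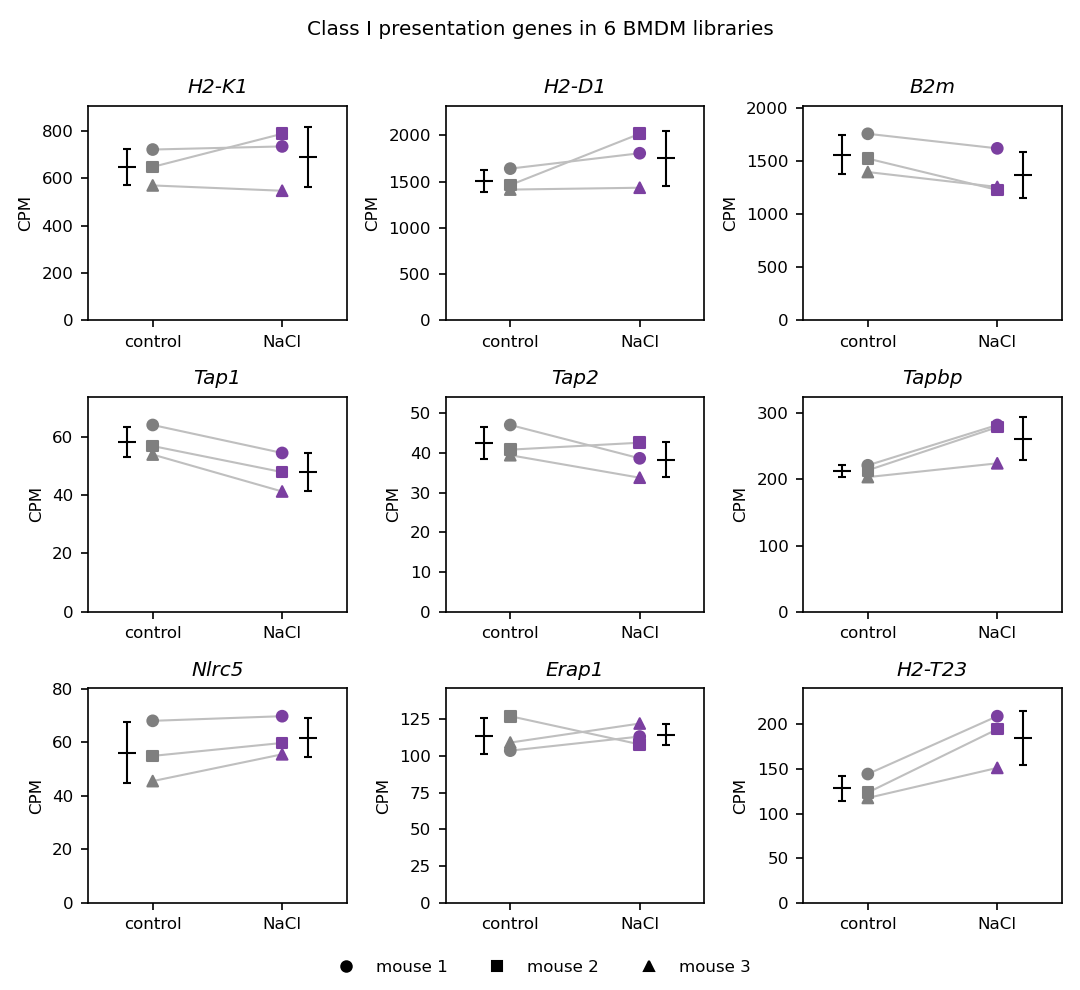
CPM (y axis, linear and starting at 0) of each of the 9 genes in control (grey) and NaCl (purple) libraries, with a marker shape for each mouse, a line joining the 2 libraries of a mouse and, beside the points, the mean ± SD (n = 3). The 3 lines of H2-T23 all climb, from 117 to 144 CPM in control to 151 to 209 CPM in NaCl, while the lines of Erap1 cross.

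Per length of exon, the light chain was the most abundant of the 9 transcripts. B2m was at 1814 ± 212 RPKM in control (SD, n = 3), followed by H2-D1 at 584 ± 46.2, H2-K1 at 220 ± 25.8, Tapbp at 58.7 ± 2.47 and H2-T23 at 44.5 ± 4.87 RPKM. Below these lay Erap1 at 15.6 ± 1.69, Tap2 at 11.2 ± 1.07, Tap1 at 10.6 ± 0.953 and Nlrc5 at 6.62 ± 1.33 RPKM. Tap2 and Tap1 overlapped in the control libraries, and the other neighbours in this order did not. The order of the means was the same in NaCl, where Tap2 and Tap1 again overlapped, Tapbp (61.9 to 77.9 RPKM) came to overlap H2-T23 (52.3 to 72.4 RPKM) and Tap1 (7.52 to 9.94 RPKM) came to overlap Nlrc5 (6.54 to 8.22 RPKM). Together the 9 genes made up 0.389% to 0.492% of all counts in the control libraries and 0.395% to 0.511% in the NaCl libraries.

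Neither classical heavy chain passed in either fit. H2-K1 (ENSMUSG00000061232.17, chromosome 17) was at 722, 648 and 570 CPM in control replicates 1, 2 and 3 and at 735, 788 and 548 CPM in NaCl replicates 1, 2 and 3. The groups overlapped, and NaCl held both the highest and the lowest of the 6 values. Its log2 fold change was 0.09 (standard error 0.16, 95% interval -0.27 to 0.46, adjusted p = 0.862 in edgeR), and without 1 library it ran from -0.0046 (without NaCl replicate 2) to 0.24 (without NaCl replicate 3). H2-D1 (ENSMUSG00000073411.13, chromosome 17) was at 1640, 1463 and 1414 CPM in control and at 1807, 2017 and 1434 CPM in NaCl. The groups overlapped here too, and NaCl replicate 2 was the highest library, as for H2-K1. The log2 fold change of H2-D1 was 0.22 (standard error 0.15, 95% interval -0.13 to 0.56, adjusted p = 0.615 in edgeR), and it was 0.14, 0.46 and 0.02 within mice 1, 2 and 3. Without NaCl replicate 2 it was 0.11 and without NaCl replicate 3 it was 0.35. In the block fit the 95% interval of the fold ran from 0.895 to 1.26 for H2-K1 and from 0.970 to 1.38 for H2-D1. Of the 75-base windows in their transcripts, 3.10% of those of H2-K1 and 5.56% of those of H2-D1 occur in another gene, chiefly H2-Q10 and H2-Q1, and reads from such windows are not counted when they map to more than 1 place.

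The stretches before the transcription starts of these genes, from RefSeq on GRCm38.p6, are shown for both heavy chains, for H2-T23 and for B2m, because the classical genes carry a known promoter module whose parts can be set beside the same stretch of the nonclassical gene and of the light chain gene. Entries were found for 7 of the 9 genes, H2-K1 with a pair of starts, of which the downstream one is printed. Capitals mark matches, on either strand, to GGGATTCCC (a kB site), TTTCNNTTC (the form of the interferon regulatory factor element in these heavy chain genes), TTCNNTTTC (the core of the interferon-stimulated response element, ISRE), CCAAT (the NF-Y box), TGACG (the core of the CRE-like X2 box) and TATAAA (the TBP box). Each line holds the 200 bases before the start, 5′ to 3′ on the strand of the gene.
H2-K1, chr17:34000334-34000533, minus strand: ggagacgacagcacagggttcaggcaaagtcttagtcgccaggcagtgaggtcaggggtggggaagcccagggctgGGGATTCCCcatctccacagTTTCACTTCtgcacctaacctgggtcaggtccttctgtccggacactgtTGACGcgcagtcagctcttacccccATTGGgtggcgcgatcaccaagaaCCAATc
H2-D1, chr17:35262894-35263093, plus strand: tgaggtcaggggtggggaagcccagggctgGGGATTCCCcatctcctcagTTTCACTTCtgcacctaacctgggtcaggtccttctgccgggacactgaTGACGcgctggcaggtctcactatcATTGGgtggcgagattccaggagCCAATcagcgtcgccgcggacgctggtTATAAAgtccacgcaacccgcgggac
H2-T23, chr17:36032702-36032901, minus strand: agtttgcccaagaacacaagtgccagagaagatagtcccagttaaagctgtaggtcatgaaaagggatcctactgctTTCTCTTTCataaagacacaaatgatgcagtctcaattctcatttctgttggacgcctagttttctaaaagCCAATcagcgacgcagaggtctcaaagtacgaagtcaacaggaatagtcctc
B2m, chr2:122147487-122147686, plus strand: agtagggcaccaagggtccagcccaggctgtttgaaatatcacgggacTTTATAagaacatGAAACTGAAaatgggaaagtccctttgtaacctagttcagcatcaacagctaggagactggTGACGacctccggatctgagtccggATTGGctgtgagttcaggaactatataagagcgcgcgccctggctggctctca
H2-K1 and H2-D1 held the same series of a kB site, the IRF element of 9 bases, a TGACG core and a pair of NF-Y boxes, at -124, -104, -55, -30 and -6 from the start in H2-K1 and at -170, -150, -101, -76 and -53 in H2-D1. H2-T23 matched neither the kB site nor TGACG within the 250 bases searched. It held an ISRE core at -123 and 1 NF-Y box at -52, and B2m an ISRE core at -139, a TGACG core at -78 and an NF-Y box at -53. TATAAA was found at -26 in H2-D1 and, on the reverse strand, at -152 in B2m. At the same distance from the last NF-Y box, the matching place in H2-K1 lies after the start and was not searched. Over 32851 promoter windows of this length, the kB site was found in 0.301%, the IRF element of 9 bases in 6.31%, the ISRE core in 7.13%, the NF-Y box in 33.8%, TGACG in 17.8% and TATAAA in 12.4%. The IRF element and the ISRE core can overlap each other but did not in these genes. The motifs were chosen after these sequences were seen, so the matches and their absence depend on that choice. For the same reason the shares over all windows are no test of the matches. The matches are descriptions of letters, and binding was not measured.

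**Figure D2:**
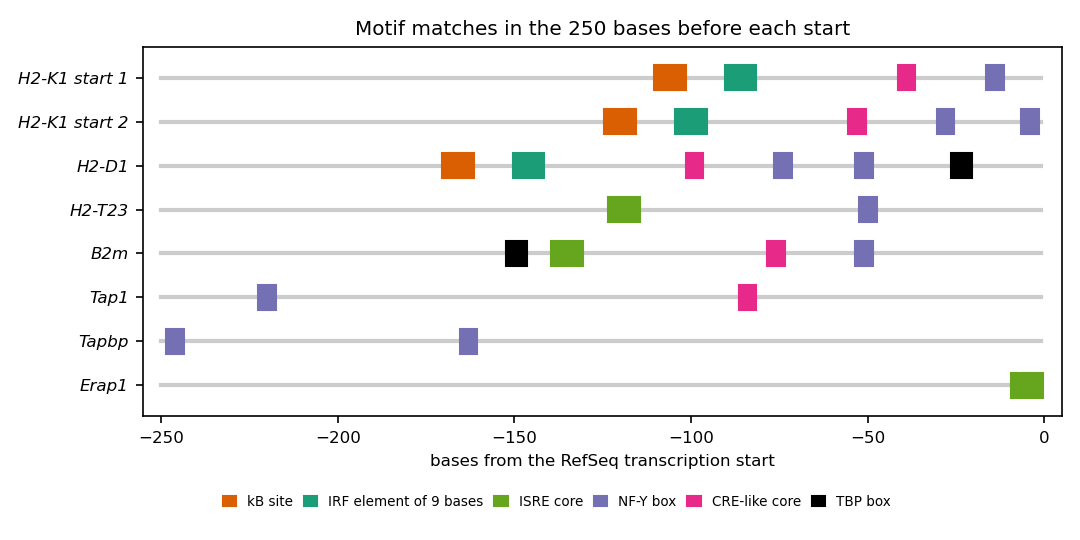
Positions of the motif matches in the 250 bases before each RefSeq start (x axis, bases from the start; coloured boxes, matches on either strand) for the 7 genes with an entry, H2-K1 with both of its starts. H2-K1 and H2-D1 share the series of kB site, IRF element of 9 bases, CRE-like core and NF-Y boxes, while H2-T23, B2m and Erap1 each hold an ISRE core.

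The light chain went the other way without passing the test. B2m (ENSMUSG00000060802.9, chromosome 2) was at 1758, 1524 and 1397 CPM in control and at 1620, 1229 and 1257 CPM in NaCl. Each mouse had less B2m in NaCl, but NaCl replicate 1 lay above control replicates 2 and 3. The log2 fold change was -0.19 (standard error 0.16, 95% interval -0.54 to 0.16, adjusted p = 0.669 in edgeR), and it was -0.089 without control replicate 1, -0.11 without NaCl replicate 2 and -0.32 without NaCl replicate 1. With the replicate block it was also -0.19 and did not pass (adjusted p = 0.364 in edgeR). None (0%) of the 75-base windows of B2m occur in another gene.

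Ratios of counts within a library do not depend on how libraries are scaled, and 3 of them were compared. H2-K1 and H2-D1 together had 1.34, 1.39 and 1.42 counts for each count of B2m in control replicates 1, 2 and 3, and 1.57, 2.28 and 1.58 in the NaCl replicates. All 3 NaCl libraries exceeded all 3 control libraries, most of all NaCl replicate 2. On the log2 scale the ratio was 0.47 ± 0.04 in control and 0.83 ± 0.31 in NaCl (SD, n = 3), a difference of 0.36 (two-sided exact permutation, p = 0.1 and 0.3 after adjustment over the 3 ratios, where 0.1 is the lowest that 3 against 3 can give). Without NaCl replicate 2 the difference was 0.19. The ratio of H2-K1 to H2-D1 was 0.440, 0.443 and 0.403 in control and 0.407, 0.391 and 0.382 in NaCl, a log2 difference of -0.12 (exact permutation test, p = 0.2, 0.3 adjusted). This ratio was lower in NaCl in 3 of 3 mice, but control replicate 3 lay below NaCl replicate 1. The ratio of Tap1 to Tap2 was 1.36, 1.39 and 1.37 in control and 1.41, 1.12 and 1.22 in NaCl, a log2 difference of -0.14 (exact permutation test, p = 0.4, also 0.4 adjusted). The permutation tests cannot pass a threshold of 0.05 in this design.

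**Figure D3:**
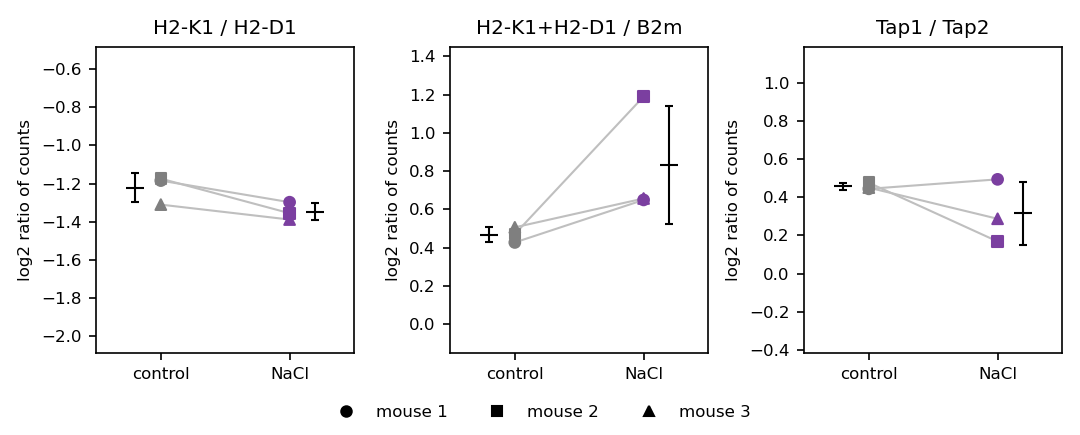
Log2 ratio of counts within each library (y axis, the same span of 1.6 in each panel and not starting at 0) for H2-K1 to H2-D1, H2-K1 plus H2-D1 to B2m and Tap1 to Tap2, with mice by marker shape and the mean ± SD (n = 3) beside the points. The heavy to light chain ratio is higher in NaCl in each mouse, with mouse 2 at 1.19 in NaCl against 0.47 in control.

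H2-T23 had the largest fold change of the 9. H2-T23 (ENSMUSG00000067212.9, chromosome 17) was at 144, 124 and 117 CPM in control replicates 1, 2 and 3 and at 209, 195 and 151 CPM in NaCl replicates 1, 2 and 3. The groups did not overlap, and every NaCl library exceeded every control library. Group means were 128 ± 14.1 CPM in control and 185 ± 30.1 CPM in NaCl (SD, n = 3), and the log2 ratio within mice 1, 2 and 3 was 0.53, 0.65 and 0.36. Without the mouse term the log2 fold change was 0.53 (standard error 0.15, 95% interval 0.18 to 0.87), which did not pass (adjusted p = 0.187 in edgeR and 0.0705 in DESeq2). With the mouse as a replicate block it was 0.52 (standard error 0.12, 95% interval 0.28 to 0.76), a rise of 1.43-fold, and passed (adjusted p = 0.0044 in edgeR and 0.00243 in DESeq2). Leaving out both libraries of mouse 1 gave 0.52 and ended the call (adjusted p = 0.0895 in edgeR with the block), whereas without mouse 2 or mouse 3 it passed (adjusted p = 2.0e-04 and 0.00526 in edgeR). Of the 75-base windows of H2-T23, 5.91% occur in another gene, of which 2.78% are shared with Gm7030.

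**Figure D4:**
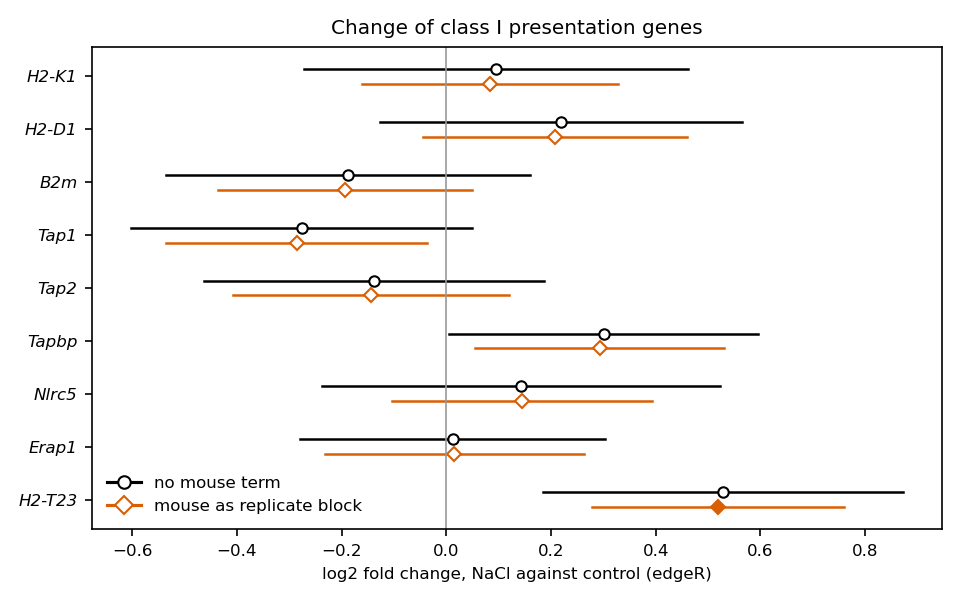
Log2 fold change of NaCl against control (x axis) for the 9 genes in edgeR without a mouse term (black circles) or with the replicate block for the mouse (orange diamonds), with 95% intervals as lines and filled symbols for an adjusted p under 0.05. H2-T23 with the block, at 0.52, is the filled symbol, and the intervals of H2-K1, H2-D1, B2m, Tap2, Nlrc5 and Erap1 include 0 in both fits. Those of H2-T23 and Tapbp exclude 0 in both fits, and that of Tap1 does so with the block, but neither Tapbp nor Tap1 was called.

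The parts that deliver and load peptides did not move together. Tapbp (ENSMUSG00000024308.16, chromosome 17), whose product tapasin bridges the transporter and the empty class I molecule, was at 221, 214 and 204 CPM in control and at 283, 279 and 224 CPM in NaCl. Its groups did not overlap, and NaCl replicate 3 lay just above the controls. Neither fit called Tapbp, whose log2 fold change was 0.30 (standard error 0.13, edgeR adjusted p = 0.391), and 0.29 with the replicate block (edgeR adjusted p = 0.121). Overlapping genes on the opposite strand cover 24.9% of its exon bases, mainly Gm19412, and the libraries were made without strand information.

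Tap1 (ENSMUSG00000037321.18, chromosome 17) was at 64.0, 56.8 and 53.9 CPM in control and at 54.4, 47.9 and 41.2 CPM in NaCl, lower in 3 of 3 mice. The groups overlapped because NaCl replicate 1 reached the level of control replicate 3. Tap1 differed by -0.28 on the log2 scale (standard error 0.15, edgeR adjusted p = 0.475), and by -0.29 with the replicate block (edgeR adjusted p = 0.154). Its 95% interval, not adjusted over genes, was -0.60 to 0.05 without the mouse term and -0.54 to -0.036 with the block. Tap2 (ENSMUSG00000024339.13, chromosome 17), the partner subunit, was at 47.1, 40.9 and 39.4 CPM in control and at 38.7, 42.6 and 33.8 CPM in NaCl. It was lower in 2 of 3 mice, with a log2 fold change of -0.14 (standard error 0.15, 95% interval -0.46 to 0.19, adjusted p = 0.747 in edgeR), and it was -0.054 without control replicate 1, -0.060 without NaCl replicate 3 and -0.21 without NaCl replicate 2. Genes on the opposite strand overlap 18.5% of the exon bases of Tap2, mainly Gm15821, and 3.87% of those of Tap1.

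Erap1 (ENSMUSG00000021583.8, chromosome 13) had the smallest difference of the 9. It was at 104, 127 and 109 CPM in control and at 113, 108 and 122 CPM in NaCl, and each group held values within the range of the other. On the log2 scale the groups differed by 0.01 (standard error 0.13, edgeR adjusted p = 0.985), with a 95% interval from -0.28 to 0.30. Its sign changed with the processing, for instance to -0.042 without control replicate 1. Of the 75-base windows of Erap1, 10.4% lie in the opposite-strand gene Cast.

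Nlrc5 (ENSMUSG00000074151.14, chromosome 8), the transactivator, was the least abundant of the 9 per length. It was at 68.1, 55.0 and 45.6 CPM in control and at 69.8, 59.8 and 55.6 CPM in NaCl. Each mouse had a little more in NaCl, with log2 ratios of 0.04, 0.12 and 0.29, yet the controls alone spread from 45.6 to 68.1 CPM, more than the difference of the means. The log2 fold change was 0.14 (standard error 0.17, 95% interval -0.24 to 0.52, adjusted p = 0.780 in edgeR), and it was 0.019 without control replicate 3, 0.048 without NaCl replicate 1 and 0.31 without control replicate 1.

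The order of the control libraries was alike in nearly all members. Control replicate 1 had the highest and control replicate 3 the lowest of the 3 control values in 8 of the 9 genes, all but Erap1, whereas 20.5% of all genes tested showed this pattern. NaCl replicate 3 was the lowest of the NaCl libraries in 7 of the 9 genes, against 34.9% of all genes. The highest NaCl library was replicate 2 for H2-K1, H2-D1 and Tap2, replicate 3 for Erap1 and replicate 1 for the other members. The total counts of control replicates 1, 2 and 3 were 8520433, 11315918 and 20123570. The parts of the mouse and of depth in these patterns were not tested.

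Beside the 9 members, 64 further genes of the class I pathway were listed, of which 58 were tested. In edgeR without the mouse term 0 of the 58 passed in either direction, and DESeq2 called 1 as lower, against 0.975% of all genes. An unadjusted p under 0.05 in edgeR was found for 9 of the 58, beside 2010 of all 15903 genes tested. With the mouse as a replicate block 3 were higher and 5 were lower, beside 4.60% and 4.30% of all genes tested. The median log2 fold change of the 58 without the mouse term was -0.0036.

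Among other class I-like heavy chains, which also pair with beta-2 microglobulin, 12 of the 17 listed were tested. With the replicate block 2 of the 12 were higher and 2 were lower, beside 4.60% and 4.30% of all genes tested. H2-Q4, which encodes a Q-region heavy chain, was at 38.1, 26.8 and 21.6 CPM in control and at 46.7, 43.2 and 34.7 CPM in NaCl. It was higher in 3 of 3 mice although the groups overlapped, with a log2 fold change of 0.55 in the block fit (adjusted p = 0.0077 in edgeR), and 20.7% of its 75-base windows are shared, mainly with Gm11131. H2-T24 was at 17.9, 10.9 and 9.63 CPM in control and at 26.6, 16.7 and 13.9 CPM in NaCl. It too was higher in 3 of 3 mice with overlapping groups, by 0.58 on the log2 scale with the block (adjusted p = 0.0168 in edgeR). H2-T24 was not called by DESeq2 with the block (adjusted p = 0.0904) or by edgeR with the block and without mouse 1 (adjusted p = 0.138). Without the mouse term the adjusted p was 0.336 for H2-Q4 and 0.426 for H2-T24 in edgeR.

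Both genes that were lower encode proteins of other function. Mr1, whose product presents vitamin B metabolites to MAIT cells, was at 24.4, 22.3 and 20.2 CPM in control and at 19.9, 11.9 and 11.7 CPM in NaCl, with no overlap of the groups. The log2 fold change of Mr1 with the block was -0.65 (adjusted p = 0.00871 in edgeR, against 0.298 without the mouse), and DESeq2 with the block did not call it (adjusted p = 0.055). Fcgrt, which encodes the neonatal Fc receptor that recycles IgG, was at 111, 47.9 and 45.8 CPM in control and at 74.5, 30.0 and 27.5 CPM in NaCl. Its log2 difference with the block was -0.65 (adjusted p = 8.1e-04 in edgeR, against 0.610 without the mouse). Mouse 1 had more Fcgrt than the other two in both groups. H2-M3, Hfe and Cd1d1 did not pass in either fit, nor did H2-T10 and H2-T22. Among the 5 listed heavy chains that were not tested, total counts over the 6 libraries ran from 0 for H2-M5 to 4 for H2-Q10.

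Of 11 genes for folding and loading in the endoplasmic reticulum, 10 had a negative log2 fold change, as had 8083 of all 15903 genes tested. With the replicate block 3 of the 11 were lower, against 4.30% of all genes, and 0 were higher. Calr, whose product calreticulin is part of the peptide-loading complex, was at 984, 1324 and 1245 CPM in control and at 781, 791 and 838 CPM in NaCl. With the block it differed by -0.55 on the log2 scale (adjusted p = 0.00361 in edgeR, against 0.139 without the mouse). DESeq2 without the mouse called Calr too (adjusted p = 0.0233). Pdia3, the disulfide isomerase bound to tapasin in that complex, was at 674, 814 and 804 CPM in control and at 563, 400 and 591 CPM in NaCl. With the block it differed by -0.58 on the log2 scale (adjusted p = 0.00523 in edgeR, against 0.2 without the mouse). Hspa5, the general chaperone BiP, had a log2 fold change of -0.46 with the block (adjusted p = 0.0133 in edgeR, against 0.211 without the mouse), a call that ended without mouse 1 or mouse 3 (adjusted p = 0.0968 and 0.0724 in edgeR with the block). In each of these 3 genes the groups did not overlap. Tapbpl, the tapasin-related editor of peptides, had a mean of 19.7 ± 2.04 CPM in control, beside 17.1 ± 1.38 CPM with NaCl, and passed in neither fit. All 3 called genes are general folding factors of the endoplasmic reticulum as well as parts of this list.

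Of 12 tested genes of the immunoproteasome, its activator and cytosolic peptidases, 0 passed in either fit of edgeR or of DESeq2. In edgeR without the mouse 0 of the 12 had an unadjusted p under 0.05, beside 2010 of all 15903 genes tested. Psmb8, Psmb9 and Psmb10, the inducible catalytic subunits, had log2 fold changes of 0.22, 0.08 and -0.09 without the mouse term. Thop1, a peptidase that degrades class I ligands, had the highest of the 12, 0.45, and Psme2, a subunit of the proteasome activator, the lowest, -0.24. Among 15 genes for transcription factors and chromatin regulators of class I genes, 1 was higher with the block and 0 lower, beside 4.60% and 4.30% of all genes. This was Ezh2, the methyltransferase of the Polycomb complex that can silence class I genes, which went from 45.7 ± 2.46 CPM in control to 68.3 ± 18.5 CPM in NaCl, with a log2 fold change of 0.55 (adjusted p = 0.00759 in edgeR with the block, against 0.266 without the mouse). Without mouse 3 Ezh2 was not called in that fit (adjusted p = 0.066 in edgeR). The partners of NLRC5 in the enhanceosome, Rfx5, Rfxap and Rfxank, had log2 fold changes of 0.24, 0.21 and 0.25 and did not pass, and Irf1 was at 0.12. Of 8 genes for cross-presentation 0 passed in edgeR with or without the block. Without it 1 of the 8 had an unadjusted p under 0.05, again beside 2010 of all 15903 genes. Rab27a, for vesicle transport, was highest at 0.40 and Rab43 lowest at -0.33, with 454 and 327 counts over the 6 libraries. Of the 75-base windows of Rab43, 74.2% are shared with Gm45140. DESeq2 with the block called 1 of the 8, Cybb, as higher, against 2.84% of all genes.

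**Figure D5:**
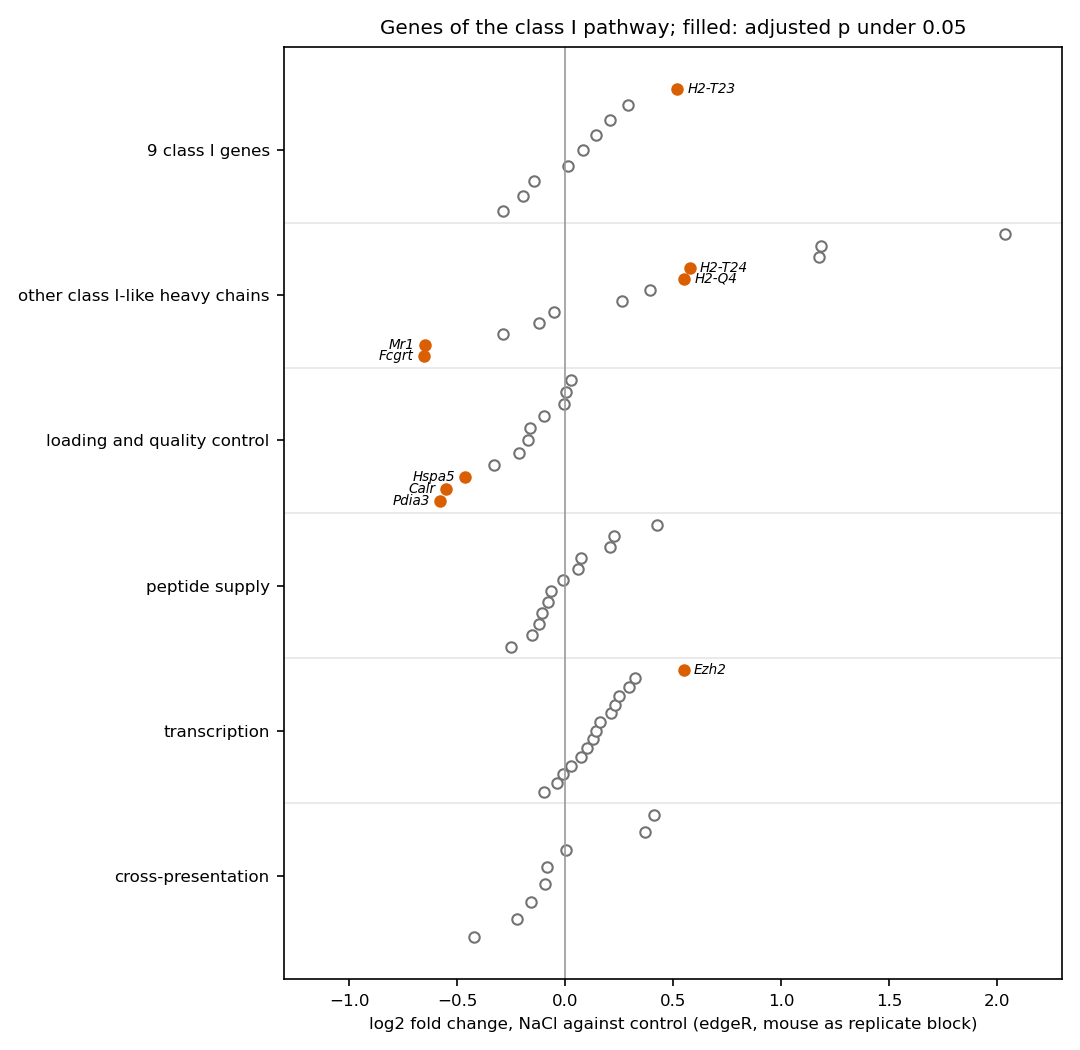
Log2 fold change of NaCl against control in edgeR with the mouse as a replicate block (x axis) for the 9 genes and the 5 further lists of the class I pathway, 1 point per gene tested, filled and named where the adjusted p was under 0.05. H2-T23, H2-T24, H2-Q4 and Ezh2 lie to the right, Mr1, Fcgrt, Calr, Pdia3 and Hspa5 lie to the left, and the other points are open, among them H2-Q6, H2-Q7 and H2-M2 at the far right, which rest on few counts.

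For comparison, interferon-stimulated genes and the class II pathway were read in the same fits. Of 12 tested genes typical of interferon gamma, 1 passed as higher without the mouse term, against 0.478% of all genes. This was Cxcl10, which encodes a chemokine and had a log2 fold change of 2.50 (adjusted p = 0.034 in edgeR). Cxcl10 rested on few counts, 8, 7 and 13 in control and 37, 60 and 9 in NaCl replicates 1, 2 and 3. Leaving out 1 library gave an adjusted p from 0.0334 to 0.254 in edgeR without the mouse term. With the block Cxcl10 was higher and Gbp7, a guanylate-binding protein gene, was lower, beside 4.60% and 4.30% of all genes. Gbp7 was called neither by DESeq2 with the block (adjusted p = 0.125) nor by edgeR with the block and without mouse 2 (adjusted p = 0.114). All 16 genes typical of type I interferon had a positive log2 fold change, as had 7820 of all 15903 genes tested. In edgeR without the mouse term 0 of the 16 passed, and 4 had an unadjusted p under 0.05, beside 2010 of all 15903 genes. DESeq2 called 2 of the 16 as higher, against 1.54% of all genes. With the block in edgeR 4 were higher, against 4.60% of all genes, namely Ifit1, Ifit2, Ifit3 and Usp18, with log2 fold changes from 0.75 for Ifit2 to 1.05 for Ifit1. Each of these 4 calls ended without 1 mouse, namely mouse 1 for Ifit1, Ifit3 and Usp18 (adjusted p = 0.0767, 0.106 and 0.0885 in edgeR with the block) and mouse 3 for Ifit2 (adjusted p = 0.0553). The median over the 16 was 0.32 without the mouse term, beside 0.09 over the 9 class I genes, and the difference between the lists was not tested. Of 7 tested genes for interferon receptors and their kinases, 5 had a negative log2 fold change. With the block 1 of the 7, Ifnar1, was lower and 0 were higher, beside 4.30% and 4.60% of all genes. Ifnar1, a chain of the type I interferon receptor, had a mean of 207 ± 2.86 CPM in control and of 122 ± 22.9 CPM with NaCl, -0.78 on the log2 scale with the block (adjusted p = 1.1e-04 in edgeR, against 0.0579 without the mouse). Ifnar2, Ifngr1, Ifngr2, Jak1, Jak2 and Tyk2 passed in neither edgeR fit. The genes of interferon beta and gamma, Ifnb1 and Ifng, had no count in any library. Of 11 class II genes 0 passed in either edgeR fit, and their median log2 fold change was 0.04 without the mouse and -0.05 with the block. In edgeR without the mouse 1 of the 11 had an unadjusted p under 0.05, beside 2010 of all 15903 genes. H2-Oa had 17 counts over the 6 libraries, too few to give its fold. The lowest log2 fold change of the 11 was -0.56, for H2-Ob, which also rested on few counts, 73 over the 6 libraries.

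The genes whose pattern over the 6 libraries was most like the mean log2 CPM of the 9 members were Otud5, Irf1, Gm42047, Lgmn and Slamf8, with Pearson's r from 0.975 to 0.983 among 9915 genes with a mean of at least 50 counts. These 5 passed in neither fit of edgeR, and the libraries share 3 mice, so the coefficients describe these libraries. The member mean itself ran from 7.55 to 7.81 in control and from 7.57 to 7.87 in NaCl on the log2 CPM scale.

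The labelled cell type was checked against its markers. The 8 macrophage markers summed to between 15102 and 16895 CPM in control and between 23670 and 30988 CPM in NaCl, a sum that Lyz2, the gene of lysozyme, dominated. Of these 8, Csf1r and Lyz2 were higher and Mrc1 was lower with the replicate block, beside 4.60% and 4.30% of all genes. Among markers of other cells, the 9 of dendritic cells, with 0 at no count, summed to between 7.11 and 9.55 CPM in control and between 4.08 and 7.43 CPM in NaCl. The 9 of T and NK cells, of which 4 (Cd3e, Ncr1, Gzma and Prf1) had no count, summed to between 1.14 and 1.56 CPM in control and between 2.35 and 2.64 CPM in NaCl. Klrb1c made up most of that sum, with means of 1.12 CPM in control and 2.20 CPM in NaCl. Cd3g was higher in NaCl and Nkg7, Cd3d and Trac were lower, each on 8 counts or fewer over the 6 libraries. B cell markers, of which Pax5 had no count, summed to between 14.8 and 57.0 CPM in control and between 13.9 and 59.7 CPM in NaCl, and those of monocytes to between 159 and 261 CPM and between 93.6 and 313 CPM. For neutrophils the range was 207 to 419 CPM in control and 227 to 339 CPM in NaCl, and for stromal and endothelial cells 4.17 to 7.57 CPM and 3.44 to 6.23 CPM. Of all these markers of other cells, Mpo, a neutrophil gene, was lower with the block in edgeR but was not called by DESeq2 with the block (adjusted p = 0.141), 0 others passed in edgeR, and the part of other cells in the class I values was not tested.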

How the data were processed

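RNA of 6 BMDM cultures, 3 control and 3 NaCl, was measured. Reads of 75 bp were trimmed by the authors with fastp 0.20.0, aligned to mm10 and counted per gene with STAR 2.7.10b and a GENCODE annotation, and the raw count per gene was deposited. The tool versions are those of the submitters' processing notes. A second table was deposited by the authors with the same counts divided by 1 DESeq2 size factor per library, a normalized signal from which symbols and chromosomes were taken here.

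The test was edgeR 4.0.16 (TMM, glmQLFit and glmQLFTest) on genes whose counts summed to 10 or more, and p-values were adjusted over 15903 genes. Standard errors were computed as the log2 fold change divided by the root of F. DESeq2 1.42.0, limma 3.58.1 (voom), R 4.3.3 and Python 3.11.15 were used. The deviations of libraries of the same mouse from their group means correlated across genes (0.43, 0.15 and 0.22 for mice 1, 2 and 3, against -0.35 to 0.12 for other pairs), and the labels give the mouse, so the mouse pairs the samples. Exon lengths, overlaps and shared windows came from GENCODE M21 (GRCm38), a different release from the authors', and motifs, chosen after the sequences were seen, were searched in RefSeq windows. Alternatives were another tool, the block, 2 other scalings, 2 other filters, limma-voom and leaving out each library. The scripts were tested on simulated data.

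The members and lists were chosen with earlier results of these data known. Named were the 9 members, list genes called in edgeR with or without the block (elsewhere the highest and lowest of a list) and the 5 genes most like the member mean. H2-M5, H2-Q10, Tapbpl, H2-M3, Hfe, Cd1d1, H2-T10, H2-T22, H2-Q6, H2-Q7, H2-M2, Cybb, the immunoproteasome, enhanceosome and interferon genes named without a call and the marker genes at 0 were added after their values were seen. The replicate unit is the culture of 1 mouse. Intervals rest on the spread between these cultures and on a dispersion that edgeR moderates over all genes. With the block, differences that both libraries of a mouse share are taken out of them.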

Additional observations from a re-analysis of the deposited data

How the results depend on the processing

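Direction held for 7 of the 9 class I genes under all 17 alternatives. H2-T23 alone of the 9 gained a call, in 4 fits, namely with the replicate block in edgeR (0.52), in DESeq2 with the block (0.53), and with the block when mouse 2 (0.46) or mouse 3 (0.60) was left out. The block changed no other call among the 9. H2-K1 turned to -0.0046 without NaCl replicate 2 and to -0.0066 with the block and without mouse 2. Erap1 turned to -0.0045 with a minimum total count of 1, to -0.042, -0.0024 and -0.035 without control replicate 1, control replicate 3 and NaCl replicate 3, and to -0.029 and -0.048 with the block without mouse 1 or mouse 3. Leaving out 1 library gave -0.0046 to 0.24 for H2-K1, -0.042 to 0.11 for Erap1, 0.11 to 0.35 for H2-D1, -0.32 to -0.089 for B2m, -0.37 to -0.19 for Tap1, -0.21 to -0.054 for Tap2, 0.25 to 0.40 for Tapbp, 0.019 to 0.31 for Nlrc5 and 0.44 to 0.65 for H2-T23.

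Over all genes, against 76 higher and 28 lower, DESeq2 gave 245 and 155, the replicate block 732 and 684, DESeq2 with the block 452 and 354, and a threshold of 1 on the summed count 362 and 300. Leaving out 1 library gave 8 to 123 higher and 0 to 46 lower (46 and 25, 8 and 1, and 9 and 1 without control replicates 1, 2 and 3, and 123 and 46, 22 and 0, and 9 and 0 without NaCl replicates 1, 2 and 3). The block without mouse 1, 2 or 3, chosen after the data were seen, gave 469, 758 and 715 higher and 417, 661 and 585 lower. Of the 9 class I genes 1 was higher with the block by either tool, and 0 to 1 with the block when a mouse was left out. Of the 58 other pathway genes, against 0 and 0, the block called 3 higher and 5 lower, DESeq2 with the block 3 and 4 (it called Cybb and not H2-T24 or Mr1), DESeq2 0 and 1, a threshold of 1 on the summed count 1 and 3, leaving out 1 library gave 0 to 1 higher (1 without NaCl replicate 1), and the block without mouse 1, 2 or 3 gave 2, 5 and 3 higher and 4, 5 and 4 lower. The cause was not tested. The ratios of counts kept their direction under all their alternatives. NaCl replicate 3 was the smallest library, with 4088065 counts.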
